A study of Mus musculus with 12 samples.

Results

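The genes described here are 9 dendritic cell genes: Zbtb46, Flt3, Clec9a, Batf3, Itgae, Cd209a, Siglech, Cd83 and Fscn1. They were taken by symbol, as each deposited gene ID gives it after its Ensembl number, and all 9 were found among the 47729 genes of each table. The data are RNA sequencing of 12 fat samples, 3 from each of 4 depots: interscapular brown fat (BAT), and retroperitoneal (RWAT), inguinal (IWAT) and epididymal (EWAT) white fat. All came from male wild type C57BL/6J mice that were fed a high-fat diet and whose fat had been surgically denervated; the series text gives an age of 6 to 10 weeks. Every group therefore shares the diet and the denervation, no innervated or lean group is in the comparison, and what can be compared is the depots. The labels do not say whether the 3 samples of a depot came from separate animals, so p-values measure the spread between these samples, which may be technical.

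Dendritic cells take up antigen in tissues, carry it to lymph nodes and present it to T cells. Conventional dendritic cells of type 1 (cDC1) take up dead cells and present their antigens to CD8+ T cells, those of type 2 (cDC2) mainly address CD4+ T cells, and plasmacytoid dendritic cells release type I interferon. In fat they are a small population beside the macrophages. Zbtb46 is a transcription factor of the conventional lineage and is also made by endothelial cells, and Flt3 is the receptor through which Flt3 ligand drives dendritic cell development. Batf3 is a transcription factor that cDC1 need to develop, Clec9a is a cDC1 lectin receptor that senses dead cells, and Itgae (CD103, the alpha E integrin chain) marks tissue cDC1 and also some T cells. Cd209a is a mouse lectin of the DC-SIGN family found on cDC2 and on dendritic cells derived from monocytes, and Siglech is a lectin of mouse plasmacytoid dendritic cells. Cd83 and Fscn1, an actin-bundling protein, rise in mature dendritic cells, and both are also made by other cells. In bulk tissue, fewer cells of a type and less RNA per cell cannot be told apart.

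None of the 9 genes differed between depots by the test across all genes, while single libraries stood far apart for several of them. Siglech was high in 1 BAT library and low in the other two. Cd209a had its highest levels in TPM (transcript abundance scaled for gene length and library total) in the 3 IWAT libraries, and Fscn1 was high in 1 BAT and 1 EWAT library. The depots carried between 12933516 and 21106554 expected counts per library, and the members had between 16 counts (Cd209a in EWAT 1) and 4339 counts (Fscn1 in EWAT 1) in a library. The uncertainty of read assignment was small: its posterior SD was at most 1.76 reads, for Siglech.

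Several libraries carried RNA of other tissues to different extents. Only BAT 1 had the thermogenic uncoupling protein Ucp1 at a brown fat level, with 792 TPM in BAT 1 against 0.21 TPM in BAT 2 and 1.02 TPM in BAT 3, while 7 brown fat genes summed to 11.6 TPM in BAT 2 and 13.7 TPM in BAT 3, inside the 9.29 to 68.2 TPM of the white libraries. BAT 2 and BAT 3 are thus called BAT by their labels only, and whether they hold brown fat cannot be told from these values. A BAT fold change with all 3 libraries compares libraries of that label, and the values below that move most without BAT 1 are also given without it. The summed level of 8 skeletal muscle genes was 475 TPM in RWAT 1 and 1962 TPM in RWAT 3, against 3.54 to 85.9 TPM in the other 10 libraries. The summed level of 8 mesothelial genes was 20.5 to 84.0 TPM in the EWAT libraries and in RWAT 2 and RWAT 3, and 1.80 to 2.91 TPM in the other 7. The sum of 10 macrophage genes was 1832 to 10839 TPM, of which Lyz2 alone had 987.90 to 8396.30 TPM. That of 7 B cell genes was 3.79 to 12.5 TPM. For 7 lymph node stroma genes the sum was 1.82 to 41.1 TPM, the highest in EWAT 1. There Cxcl13 alone had 38.15 TPM, and 2 of the 7 genes had their highest TPM in that library. The part of these other cells in the members' values was not tested.

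**Figure D1:**
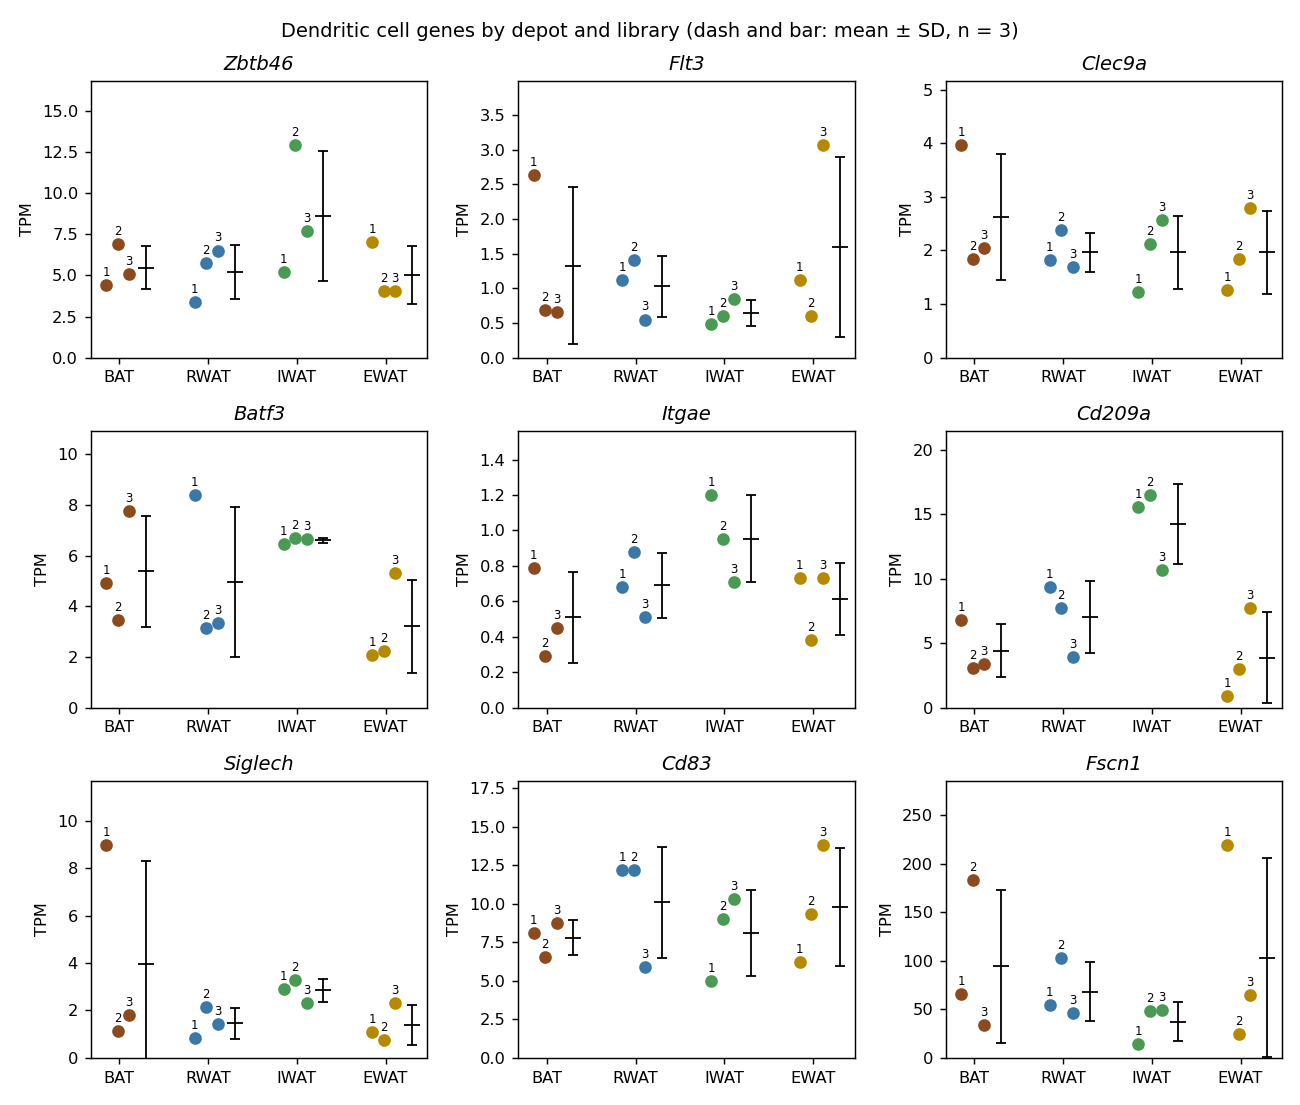
TPM (vertical axes, from 0) of the 9 genes in each of the 12 libraries by depot; points carry the replicate number, and the dash and bar give the mean ± SD of 3 libraries, cut at 0. Siglech stands out in BAT 1 at 8.97 TPM, the 3 IWAT libraries hold the highest Cd209a levels, and Fscn1 is highest in BAT 2 and EWAT 1.

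Levels over the 12 libraries ordered the genes from Fscn1, with a mean of 75.7 TPM, through Cd83 (8.96 TPM), Cd209a (7.40 TPM), Zbtb46 (6.08 TPM) and Batf3 (5.04 TPM) to Siglech (2.42 TPM), Clec9a (2.13 TPM), Flt3 (1.15 TPM) and Itgae (0.692 TPM). Among the 18942 genes that passed the filter on low counts, the median level was 7.62 TPM, and Fscn1 stood at percentile 92.5 of these levels, Cd83 at 53.3 and Itgae at 14.0. All 9 members passed that filter. The spread of the members over the 12 libraries, as an SD on the log2 scale of CPM (counts scaled to library totals with TMM factors), was lowest for Zbtb46 at 0.37 and highest for Cd209a at 1.12, against a median of 0.47 over all genes tested. The share of that log2 CPM variance that lay between depots was 10.9% for Cd83, 55.9% for Zbtb46 and 42.3% for Cd209a, against a median of 34.5% over all genes tested.

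The TPM and CPM scales did not move together across libraries. Over 18072 genes, the median ratio of TPM to CPM differed 2.44-fold between the library with the highest ratio (IWAT 2) and that with the lowest (EWAT 2). On log2(TPM + 0.1), the median of all genes tested was 0.24 higher in IWAT than in EWAT and 0.16 lower in BAT than in the white depots, whereas on the tested log2 CPM scale these medians were 0.02 and 0.01. Levels are given below in TPM, with CPM beside them where the highest library or the separation of depots differs between the scales.

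The test asked whether each gene differed among the 4 depots or between pairs of them, with edgeR's quasi-likelihood F test and Benjamini-Hochberg adjustment over all 18942 genes tested. In the test among the 4 depots, none of the 9 members was called at an adjusted p below 0.05, their adjusted p-values ran from 0.293 (Zbtb46) to 0.805 (Itgae), and 40 genes, 0.211% of all tested, were called. None of the members reached an unadjusted p below 0.05 in that test either, against 19.6% of all genes tested. DESeq2 and limma-voom, run on the same counts, called none of the 9 in any of the 8 comparisons. None was thus called between depots that are neighbours in the order of any gene's levels.

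In BAT against the white depots, taken as the mean of the 3, 0 of 9 members were called, against 10 genes or 0.0528% of all tested, and 1 of 9 (Siglech) had an unadjusted p below 0.05, against 4.66% of all genes tested. In BAT against EWAT, 0 of 9 were called, with a background of 0.0845%, and 0 of 9 had an unadjusted p below 0.05, with a background of 9.41%. In BAT against IWAT, 0 of 9 were called, with a background of 0.0264%, and 1 of 9 (Fscn1) passed the unadjusted threshold, with a background of 12.4%. In BAT against RWAT, 0 of 9 were called, with a background of 3 genes or 0.0158%, and 1 of 9 (Siglech) passed the unadjusted threshold, with a background of 4.36%. These shares rest on 9 genes and at most 1 gene each.

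The counts over all genes rest on single libraries, BAT 2 above all. Without BAT 2, 223 genes were called in BAT against the white depots, 179 in BAT against EWAT, 43 in BAT against IWAT, 10 in BAT against RWAT and 530 among the 4 depots. Without BAT 1 the same counts were 1, 3, 2, 0 and 11. Leaving out any other single library gave 1 to 7 genes in BAT against the white depots, 1 to 24 in BAT against EWAT, 0 to 9 in BAT against IWAT, 0 to 3 in BAT against RWAT and 7 to 154 among the 4 depots. No member was called in any of these fits.

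Among the white depots, IWAT against EWAT was the comparison with the most called genes: 1710 genes, or 9.03% of all tested, against 0 of 9 members. At an unadjusted p below 0.05 it had 3 of 9 members (Zbtb46, Cd209a and Fscn1), against 29.7% of all genes tested, so the members' share was close to the background. In RWAT against EWAT, 0 of 9 members were called, with a background of 1 gene or 0.00528%, and 0 of 9 passed the unadjusted threshold, with a background of 4.52%. In RWAT against IWAT, 0 of 9 members and 0% of all genes were called by edgeR, while 1 of 9 (Zbtb46) and 19.8% of all genes had an unadjusted p below 0.05; DESeq2 called 1150 genes and limma-voom 0 in that comparison.

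**Figure D2:**
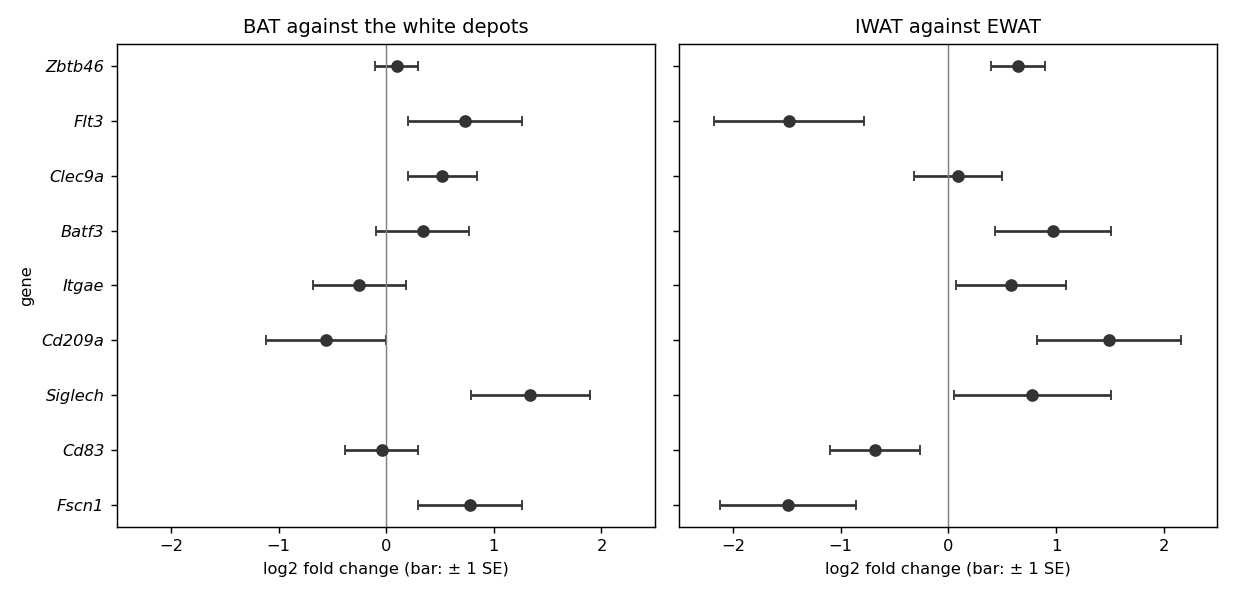
Log2 fold change (horizontal axis, bars ± 1 SE of the edgeR fit) of the 9 genes in BAT against the 3 white depots (left) and in IWAT against EWAT (right). Siglech has the largest difference on the left, at 1.34, and Cd209a and Fscn1 lie 1.49 above and 1.49 below 0 on the right; none passes the adjusted threshold.

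Siglech, the plasmacytoid lectin, had 8.97, 1.13 and 1.82 TPM in the BAT libraries, against 0.83, 2.14 and 1.41 TPM in RWAT, 2.92, 3.30 and 2.31 TPM in IWAT, and 1.10, 0.74 and 2.32 TPM in EWAT. BAT 1 alone was high, with 285 counts, and BAT 2 and BAT 3 lay inside the range of the 9 white libraries, 0.74 to 3.30 TPM. The log2 fold change in BAT against the white depots was 1.34 ± 0.55 (SE), with an edgeR adjusted p of 0.932 and an unadjusted p of 0.0331. Without BAT 1 it was -0.24 (adjusted p 1.00). With BAT 1 as the only BAT library, the log2 fold change was 2.56 and the adjusted p 0.0277; that fit assumes that BAT 1 varies like the other groups, and it called 232 genes, 1.12% of the 20699 tested. Among the white depots, Siglech lay higher in every IWAT library than in every RWAT library on both scales, with a smallest gap of 2.65 CPM in IWAT against 2.58 CPM in RWAT.

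Of 12 other plasmacytoid genes, 9 also had their highest TPM in BAT 1, a library that held the highest TPM of 3.08% of all genes tested. That share depends on the TPM scale and was not taken in CPM. IWAT 2, with the highest ratio of TPM to CPM, held the highest TPM of 6217 genes, and EWAT 2, with the lowest, of 44. In BAT 1 the ratio was also low, 0.761 on a scale where IWAT 2 had 1.43. Of the 12 listed genes, 9 passed the filter on low counts that the share rests on. The kallikrein Klk1 had 3.38 TPM in BAT 1 against at most 0.24 TPM in any other library, with 4 libraries at 0. These values rest on 74 Klk1 counts over all 12 libraries together, so its levels elsewhere lie near the floor. The chemokine receptor Ccr9 had 2.79 TPM in BAT 1 against at most 0.85 TPM elsewhere, and Spib, a transcription factor of the ETS family, had 2.75 TPM in BAT 1 against at most 1.25 TPM. Tcf4, the transcription factor that plasmacytoid cells need, did not follow, with 43.22 TPM in BAT 1 and 26.23 to 95.81 TPM elsewhere; endothelial and stromal cells make it as well. The interferon-response factor Irf7 and the surface protein Bst2, both also induced by interferon in many cell types, had 386 and 260 TPM in BAT 1, against at most 142 and 123 TPM in the other libraries. Bst2 was not confined to BAT 1: BAT 2 and BAT 3 had 114.33 and 123.16 TPM, and all 3 BAT libraries lay above the 9 white libraries, which had at most 98.90 TPM. In BAT against the white depots, 0 of 9 tested genes of this list were called; Irf7 had a log2 fold change of 2.61 ± 0.48 and Bst2 of 1.72 ± 0.31 (SE), both with an edgeR adjusted p of 0.123. Without BAT 1 these were 1.42 and 1.03 (adjusted p 1.00 and 0.843), and without BAT 2 they were 3.07 and 2.04 (adjusted p 0.00751 and 0.00906); DESeq2 called both (adjusted p 0.000407 and 0.00109), as did edgeR with no filter on low counts (adjusted p 0.0223 and 0.0266).

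BAT 1 also stood apart for natural killer cell genes and most T cell genes, beside which the Siglech value has to be read. The sum of 6 natural killer cell genes was 78.2, 6.81 and 24.8 TPM in BAT 1 to 3, against 3.22 to 10.7 TPM in the white libraries, and all 6 had their highest TPM in BAT 1. Of 10 T cell genes, 8 had their highest TPM in BAT 1, among them Cd3e with 1.86 TPM against at most 0.52 TPM elsewhere. The T cell sum was 71.6 TPM in BAT 1, below 122 TPM in BAT 2 and 73.2 TPM in IWAT 2. Thy1 alone had 34.74, 115.31 and 61.23 TPM in these libraries. B cell genes did not follow: 0 of 7 were highest in BAT 1. Their sum there was 5.02 TPM, within 3.79 to 12.5 TPM over the 12 libraries. The sum of the 7 brown fat genes was 1512 TPM in BAT 1, and all 7 were highest there. Xcl1, a chemokine of natural killer and T cells that attracts cDC1, had 12.57 TPM in BAT 1 against at most 3.68 TPM elsewhere. Which of these the Siglech level belongs with was not tested.

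**Figure D3:**
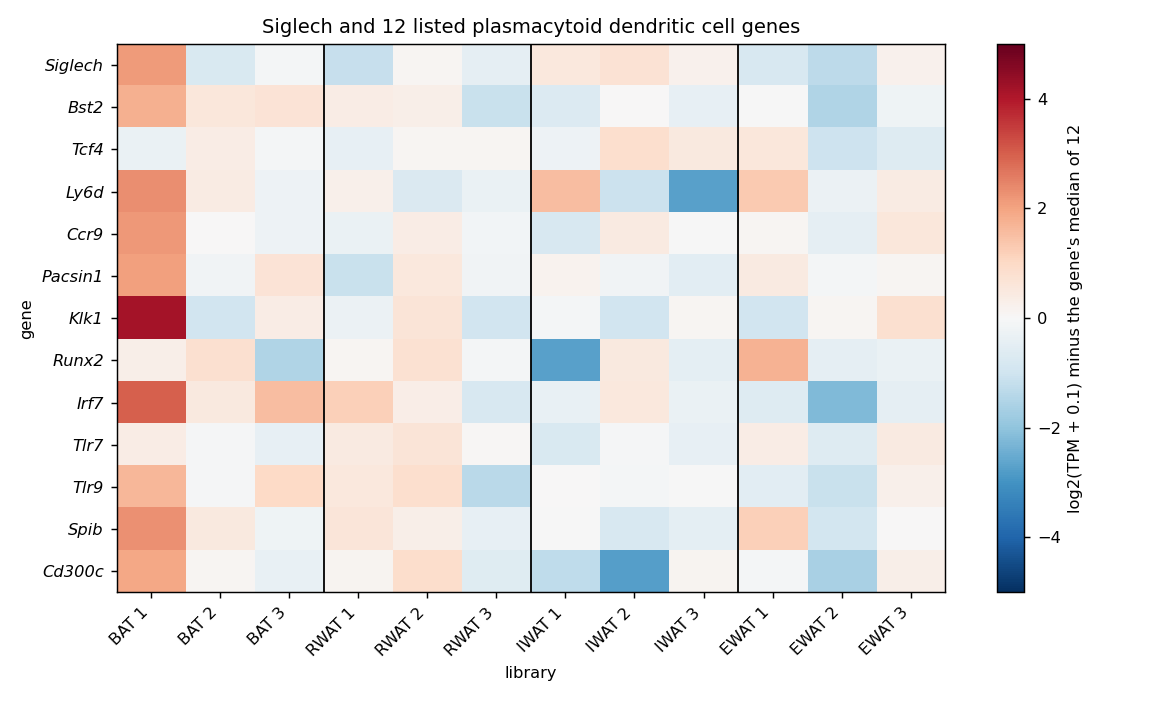
Log2(TPM + 0.1) minus each gene's median over the 12 libraries (colour) for Siglech and 12 listed plasmacytoid dendritic cell genes (rows) in each library (columns, by depot). The BAT 1 column is the highest for Siglech and 9 of the 12 genes, and not for Tcf4, Runx2 and Tlr7.

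Cd209a had 6.80, 3.09 and 3.38 TPM in BAT, 9.36, 7.76 and 3.95 TPM in RWAT, 15.56, 16.50 and 10.71 TPM in IWAT, and 0.89, 2.98 and 7.76 TPM in EWAT. All 3 IWAT libraries lay above the other 9 on the TPM scale. On the CPM scale the IWAT libraries had 18.44, 11.02 and 7.94 CPM, RWAT 1 had 8.31 CPM, BAT 1 had 7.78 CPM and EWAT 3 had 7.77 CPM, so that IWAT 3 lay below RWAT 1 and just above BAT 1 and EWAT 3. The log2 fold change in IWAT against EWAT was 1.49 ± 0.67 (SE), with an edgeR adjusted p of 0.165 and an unadjusted p of 0.0480, and it ran from 0.99 to 2.19 when 1 library was left out. The lowest of these came without EWAT 1, which had 16 Cd209a counts. In BAT against IWAT the log2 fold change was -1.40 ± 0.67 (adjusted p 0.417), with -1.97 without BAT 1 and -0.68 with BAT 1 as the only BAT library, and in RWAT against IWAT -1.02 ± 0.66 (adjusted p 0.416).

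Cd209a was called in IWAT against EWAT by 1 of the alternative methods, limma on log2(TPM + 0.1), with a difference of 2.29 and an adjusted p of 0.0440. On that scale the median of all genes was shifted by 0.24 towards IWAT, and 1284 of its 1445 calls were higher in IWAT, against 839 of 1710 for edgeR.

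The promoter windows of Siglech, Cd209a and Fscn1 are shown because these are the members whose libraries lay farthest apart. Each is the 250 bases before the RefSeq gene start (RefSeq, GRCm38.p6), 5′ to 3′ on the strand of the gene, for Siglech chr7:55767934-55768183 (+), for Cd209a chr8:3748985-3749234 (-) and for Fscn1 chr5:142960105-142960354 (+). Capitals mark matches, on both strands, to the E box CANNTG, which basic helix-loop-helix factors such as Tcf4 bind, to GAGGAA, a purine-rich core of the PU.1 type, and to TGANTCA, bound by AP-1 and Batf factors.
Siglech: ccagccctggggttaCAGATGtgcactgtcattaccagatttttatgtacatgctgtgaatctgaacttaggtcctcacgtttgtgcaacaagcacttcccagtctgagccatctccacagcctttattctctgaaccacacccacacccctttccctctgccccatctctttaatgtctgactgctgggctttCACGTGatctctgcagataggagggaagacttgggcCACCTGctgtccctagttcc
Cd209a: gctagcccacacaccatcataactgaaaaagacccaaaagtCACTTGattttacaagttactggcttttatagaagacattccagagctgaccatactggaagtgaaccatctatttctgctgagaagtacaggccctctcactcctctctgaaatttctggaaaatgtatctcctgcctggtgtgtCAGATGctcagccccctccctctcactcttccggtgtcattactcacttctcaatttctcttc
Fscn1: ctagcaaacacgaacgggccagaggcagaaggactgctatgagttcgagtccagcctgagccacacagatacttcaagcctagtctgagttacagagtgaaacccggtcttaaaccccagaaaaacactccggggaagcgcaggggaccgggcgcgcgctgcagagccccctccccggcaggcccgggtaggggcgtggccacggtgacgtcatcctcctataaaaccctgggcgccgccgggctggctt
The windows held 3 E boxes for Siglech, 2 for Cd209a and 0 for Fscn1, and neither of the other motifs. Of all 32851 promoter windows of the same length, 66.2% held at least 1 E box, 23.3% GAGGAA and 6.75% TGANTCA, so an E box is common and says nothing particular about these genes. Promoter windows were found for 7 of the 9 members. In the other 4, E boxes numbered 5 for Zbtb46, 2 for Batf3, and 1 each for Flt3 and Clec9a. Batf3 held 1 GAGGAA and Zbtb46 1 TGANTCA. By GENCODE M21 positions, the Zbtb46 window, chr2:181424389-181424638 (-), lay inside the gene, chr2:181387762-181459426. The Batf3 window, chr1:191098164-191098413 (+), also lay inside its gene, chr1:191097847-191108945. Matches in these windows are thus not before the GENCODE start of the gene. A match is a description of letters and not a bound site. GC content of the 3 windows shown was 50.8% for Siglech, 44.8% for Cd209a and 62.4% for Fscn1.

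Zbtb46, the conventional lineage factor, had 4.41, 6.91 and 5.11 TPM in BAT, 3.37, 5.75 and 6.52 TPM in RWAT, 5.20, 12.95 and 7.69 TPM in IWAT, and 7.05, 4.03 and 4.03 TPM in EWAT. The depots overlapped on the TPM scale, and IWAT 2 stood highest. On the tested CPM scale its levels were 18.54, 17.34 and 17.69 CPM in BAT, 10.58, 12.96 and 20.24 CPM in RWAT, 20.14, 27.13 and 19.65 CPM in IWAT, and 14.00, 16.44 and 12.21 CPM in EWAT, so that every IWAT library lay above every BAT and EWAT library and every BAT library above every EWAT library. In IWAT against EWAT the log2 fold change was 0.65 ± 0.25 (SE), with an edgeR adjusted p of 0.106, the smallest of any member in any comparison. In RWAT against IWAT it was -0.62 ± 0.25, with an unadjusted p of 0.0289 and an adjusted p of 0.209.

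Endothelial cells also make Zbtb46, and their genes varied over the same libraries. The sum of 8 endothelial genes was 223, 431 and 255 TPM in BAT, 163, 320 and 173 TPM in RWAT, 108, 378 and 413 TPM in IWAT, and 476, 74.9 and 128 TPM in EWAT. Zbtb46 and this sum were both high in IWAT 2, while EWAT 1 had the highest endothelial sum and 7.05 TPM of Zbtb46. In IWAT against EWAT, 1 of these 8 genes was called, the angiopoietin receptor Tek, with a log2 fold change of 2.22 ± 0.27 (SE, edgeR adjusted p 0.00685). The part of endothelial RNA in the Zbtb46 values was not tested.

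Flt3, the growth factor receptor, had 2.63, 0.69 and 0.66 TPM in BAT, 1.12, 1.41 and 0.55 TPM in RWAT, 0.49, 0.60 and 0.85 TPM in IWAT, and 1.12, 0.60 and 3.07 TPM in EWAT. BAT 1, with 213 counts, and EWAT 3, with 209 counts, stood above the other 10 libraries, which had 28 to 76 counts. In CPM the order of these was the other way round, with 11.35 CPM in BAT 1 and 10.21 CPM in EWAT 3, and every IWAT library (1.38 to 2.29 CPM) lay below every EWAT library (2.62 to 10.21 CPM), which TPM did not show. In IWAT against EWAT its log2 fold change was -1.48 ± 0.70 (SE, edgeR adjusted p 0.182), and without EWAT 3 it was -0.62. In BAT against the white depots it was 0.73 ± 0.53 (adjusted p 1.00), and without BAT 1 it was -0.51. Its ligand gene Flt3l had 2.52 to 8.91 TPM, the highest in IWAT 2, and was not called in IWAT against EWAT or in BAT against the white depots.

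For the cDC1 genes, 31.6% (Batf3), 19.1% (Clec9a) and 18.5% (Itgae) of the log2 CPM variance lay between depots. Batf3 had 4.91, 3.45 and 7.77 TPM in BAT, 8.39, 3.13 and 3.36 TPM in RWAT, 6.47, 6.68 and 6.64 TPM in IWAT, and 2.09, 2.22 and 5.32 TPM in EWAT. In CPM the highest library was BAT 3, at 6.35 CPM, with 5.22 CPM in RWAT 1. All 3 IWAT libraries lay above the 3 EWAT libraries on both scales, and the log2 fold change in IWAT against EWAT was 0.97 ± 0.54 (SE, edgeR adjusted p 0.258) and 0.61 without EWAT 1. Clec9a had 3.97, 1.84 and 2.05 TPM in BAT, against 1.70 to 2.38 TPM in RWAT, 1.22 to 2.56 TPM in IWAT and 1.26 to 2.79 TPM in EWAT. BAT 1 was again the highest library, and the depots overlapped in TPM. In CPM every RWAT library (3.04 to 3.46 CPM) lay below every IWAT library (3.53 to 4.12 CPM). The log2 fold change in BAT against the white depots was 0.52 ± 0.32 (adjusted p 1.00), with 0.13 without BAT 1, 0.85 without BAT 2 and 1.09 with BAT 1 as the only BAT library. Itgae had 0.79, 0.29 and 0.45 TPM in BAT, 0.51 to 0.88 TPM in RWAT, 0.71 to 1.20 TPM in IWAT and 0.38 to 0.73 TPM in EWAT, on 17 to 84 counts. Its depots overlapped in every pair, and T cells, most of whose listed genes were highest in BAT 1, also make it.

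The maturation genes Cd83 and Fscn1 differed from each other in level and in pattern. Cd83 had 8.11, 6.55 and 8.77 TPM in BAT, 12.19, 12.18 and 5.93 TPM in RWAT, 4.99, 9.03 and 10.33 TPM in IWAT, and 6.20, 9.37 and 13.82 TPM in EWAT, with all depots overlapping. In CPM its highest library was EWAT 2, at 30.09 CPM, with 26.47 CPM in EWAT 3. Its log2 fold change was -0.04 ± 0.34 in BAT against the white depots and -0.68 ± 0.42 in IWAT against EWAT (SE, edgeR adjusted p 1.00 and 0.313). Without EWAT 1 and BAT 2 together, Cd83 was called in IWAT against EWAT, with a log2 fold change of -1.07 and an adjusted p of 0.0467. Without EWAT 1 alone the change was also -1.07 and was not called (adjusted p 0.0816), without EWAT 2 it was -0.37 (adjusted p 0.632) and without EWAT 3 it was -0.50 (adjusted p 0.567).

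Fscn1 had 65.36, 183.37 and 34.27 TPM in BAT, 54.96, 102.94 and 46.40 TPM in RWAT, 14.48, 47.89 and 49.64 TPM in IWAT, and 219.26, 25.11 and 64.93 TPM in EWAT. BAT 2 and EWAT 1 stood highest, with 4240 and 4339 counts or 214.94 and 206.58 CPM, and both BAT and EWAT spanned the whole range of RWAT. The log2 fold change was -1.49 ± 0.63 in IWAT against EWAT (SE, edgeR adjusted p 0.141) and 1.58 ± 0.63 in BAT against IWAT (adjusted p 0.382). Without EWAT 1 the first was -0.70, and without BAT 2 the second was 0.84. Every RWAT library lay above every IWAT library in CPM, with 61.33 CPM as the lowest in RWAT and 56.96 CPM as the highest in IWAT. BAT 2 and EWAT 1 also had the highest summed endothelial levels, 431 and 476 TPM. IWAT 3 and IWAT 2 followed at 413 and 378 TPM, with Fscn1 at 49.64 and 47.89 TPM. RWAT 2 had 320 TPM, with Fscn1 at 102.94 TPM. EWAT 1 had the lowest sum of 10 adipocyte genes, 1850 TPM against 5161 to 24008 TPM in the other 11 libraries. The part of other cells in the Fscn1 levels was not tested.

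**Figure D4:**
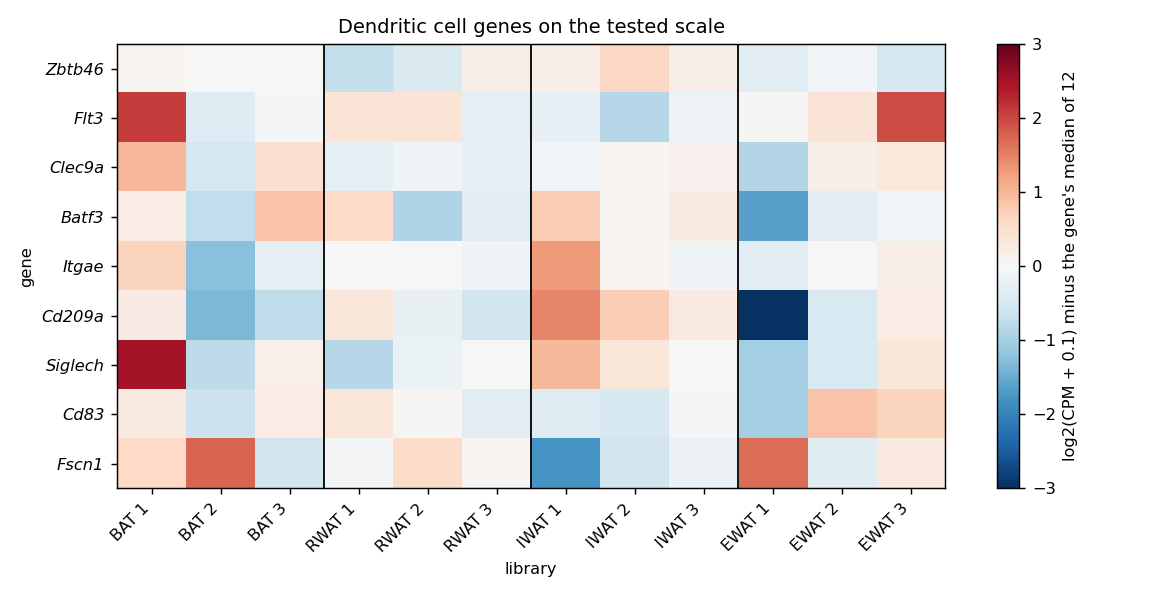
Log2(CPM + 0.1) minus each gene's median over the 12 libraries (colour) for the 9 genes (rows) in each library (columns, by depot), on the scale used for testing. BAT 1 is high for Siglech and Flt3, EWAT 3 for Flt3, IWAT 1 for Cd209a, and BAT 2 and EWAT 1 for Fscn1, where Cd209a is low.

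Counting members whose libraries did not overlap between depots, on the CPM scale, gave 0 to 3 of 9 in a comparison and direction. Those that were not 0 follow with the share of all genes tested, and each rests on 1 to 3 genes. In IWAT against EWAT, 3 of 9 members (Zbtb46, Batf3 and Cd209a) were higher in all IWAT libraries, against 17.3% of all genes tested, and 1 of 9 (Flt3) was lower in all of them, against 15.1%. In BAT against EWAT, 1 of 9 (Zbtb46) was higher in all BAT libraries, with a background of 5.49%. In BAT against IWAT, 2 of 9 (Zbtb46 and Cd209a) were lower in all BAT libraries, with a background of 7.91%. In RWAT against IWAT, 1 of 9 (Fscn1) was higher, with a background of 11.0%, and 2 of 9 (Clec9a and Siglech) were lower, with a background of 15.2%. The median log2 fold change of the members was 0.58 in IWAT against EWAT and 0.34 in BAT against the white depots, beside medians of 0.02 and 0.01 over all genes tested. In each comparison 6 members had a positive and 3 a negative change. Both medians depended on single libraries: in IWAT against EWAT the median was 0.15 without IWAT 1, and in BAT against the white depots it ran from -0.20 (with BAT 1 left out, 4 members positive and 5 negative) to 0.51 (with RWAT 1 left out). Omitting BAT 2, BAT 3 or EWAT 1 gave medians of 0.20, 0.11 and 0.22, and BAT 1 as the only BAT library gave 0.50.

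The members did not move as one group over the 12 libraries. On log2 CPM, Clec9a and Siglech had a Pearson r of 0.81 and Batf3 and Cd209a of 0.76 (n = 12 libraries, which share depth and depot). Fscn1 ran opposite to both Batf3 and Cd209a, each with r = -0.78. After each depot's mean was taken out, r was 0.78 for Clec9a and Siglech, 0.83 for Flt3 and Siglech, 0.86 for Itgae and Siglech, 0.74 for Batf3 and Cd209a, and -0.85 for Batf3 and Fscn1. BAT 1 and EWAT 1, the libraries that stood apart above, are among the points behind these values, which are descriptions with no test.

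The tested genes whose log2 CPM followed each member most closely over the 12 libraries were chosen among 13080 genes of at least 1 CPM. For Siglech they were Pm20d1 (r = 0.978), Letmd1 (0.954) and Oxnad1 (0.952), and none of them is on the plasmacytoid list. For Fscn1 they were S1pr3 (0.968), Loxl3 (0.965) and Slc39a14 (0.965), and for Cd209a they were Il11ra1 (0.927), Ift88 (0.920) and Ring1 (0.919). For Zbtb46 they were Ccdc159 (0.966), Cbx6 (0.958) and Hnrnph3 (0.936), for Flt3 Mppe1 (0.948), Cyfip2 (0.947) and Plekhf2 (0.946), and for Clec9a C8g (0.924), P2ry14 (0.875) and H2-T10 (0.874). For Batf3 they were Tmem45b (0.936), Trpv1 (0.935) and Ttc30b (0.934), for Itgae Elk1 (0.906), Rfxank (0.896) and Dhrs11 (0.893), and for Cd83 Urm1 (0.885), Arhgap15 (0.880) and Aagab (0.869). The highest of so many correlations over 12 libraries are large by selection, and they are given as likeness of pattern only.

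Other genes of the dendritic cell programmes were called in IWAT against EWAT, in both directions, while edgeR, with all libraries and the filter on low counts, called none of the listed dendritic cell genes in any of the other 7 comparisons. These calls depend on single libraries: of 22 listed dendritic cell, macrophage, monocyte and endothelial genes called in IWAT against EWAT, 1 was still called without IWAT 1, 1 without IWAT 2, 3 without EWAT 3 and 4 without EWAT 1. Over all genes, 45 were called without IWAT 1, 16 without IWAT 2, 121 without EWAT 3, 434 without EWAT 1 and 1000 without RWAT 1, against 1710 with all libraries. None of the 22 changed direction in any alternative. Without IWAT 3 or EWAT 2, 15 and 17 of the 22 were still called.

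Of 11 tested cDC2 genes, 3 were higher and 2 lower in IWAT, in a comparison that called 9.03% of all genes tested. Cd209d, a lectin gene of the same family as Cd209a, had 43.34, 64.40 and 36.20 TPM in IWAT, against 0.25, 0.83 and 0.69 TPM in EWAT. Its log2 fold change was 5.90 ± 1.23 (SE, edgeR adjusted p 0.0234), and the IWAT libraries also lay above BAT (5.70, 0.32 and 17.07 TPM) and RWAT (19.06, 5.26 and 8.63 TPM). Mgl2, the galactose lectin CD301b of skin and fat cDC2 and of some macrophages, had 55.88, 81.49 and 30.52 TPM in IWAT, against 2.68 to 7.41 TPM in EWAT, a log2 fold change of 3.22 ± 0.66 (adjusted p 0.0226). Klf4, a transcription factor that a cDC2 subset needs, was higher by 1.86 ± 0.42 (adjusted p 0.0279). Rel, an NF-kB subunit, and the integrin chain Itgam were lower, with log2 fold changes of -0.75 ± 0.19 and -1.94 ± 0.47 (adjusted p 0.0386 and 0.0330). Cd209a thus pointed the same way as Cd209d and Mgl2, at a smaller size and without a call. Which cells made these RNAs was not tested.

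Of 12 tested cDC1 genes, 1 was higher and 2 were lower in IWAT than in EWAT. Ifi205, an interferon-inducible gene, had a log2 fold change of 2.35 ± 0.43 (SE, edgeR adjusted p 0.0175). Irf8, the transcription factor of cDC1 and also of monocytes and macrophages, had -1.51 ± 0.33 (adjusted p 0.0270), and Id2, an inhibitor of E proteins that many cells express, had -1.79 ± 0.41 (adjusted p 0.0294). The cDC1 chemokine receptor Xcr1 had -0.62 ± 0.34 and was not called (adjusted p 0.248). The median log2 fold change was -0.47 over the 12 cDC1 genes and 0.23 over the 11 cDC2 genes, beside 0.02 over all genes tested.

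Of 14 genes shared by conventional dendritic cells, 1 was higher and 1 lower in IWAT than in EWAT. Dpp4 (CD26), which fat progenitor cells also make in quantity, had a log2 fold change of 3.63 ± 0.61 (SE, edgeR adjusted p 0.0148), and Spi1 (PU.1), a factor of most myeloid cells, had -1.36 ± 0.35 (adjusted p 0.0407). The class II antigen-presenting genes H2-Aa, H2-Ab1, H2-Eb1 and Cd74 had log2 fold changes of 0.03 to 0.47 and were not called. Of 14 tested maturation genes, 2 were lower in IWAT, the costimulatory receptor Cd40 (-0.95 ± 0.24, adjusted p 0.0366) and the calcium channel subunit Cacnb3 (-1.27 ± 0.35, adjusted p 0.0460). The lymph node homing receptor Ccr7 had 0.18 ± 0.55 and was not called (adjusted p 0.749). Of 9 tested plasmacytoid genes, 0 were called and 1 had an unadjusted p below 0.05, Tlr7, with -0.74 ± 0.24 (adjusted p 0.0700).

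Of 11 tested genes of dendritic cell growth and recruitment, 1 was higher and 1 lower in IWAT than in EWAT. Il34, a ligand of the macrophage growth factor receptor, had a log2 fold change of 1.87 ± 0.46 (SE, edgeR adjusted p 0.0348). The fractalkine receptor Cx3cr1 had 0.85, 1.25 and 1.70 TPM in IWAT, against 27.57, 8.18 and 15.43 TPM in EWAT, a log2 fold change of -3.82 ± 0.73 (adjusted p 0.0200). Macrophage and monocyte genes moved in the same comparison: of 10 macrophage genes, 1 was higher and 4 were lower in IWAT; the lower ones were Lyz2 (-2.23 ± 0.33, adjusted p 0.0129), Fcgr1 (-2.37 ± 0.55, adjusted p 0.0309), Mertk (-0.80 ± 0.18, adjusted p 0.0277) and C1qb (-1.16 ± 0.29, adjusted p 0.0366), with Cd163 higher (2.19 ± 0.57, adjusted p 0.0398). Of 7 monocyte genes, 2 were lower, S100a8 (-2.85 ± 0.75, adjusted p 0.0425) and S100a9 (-3.21 ± 0.87, adjusted p 0.0446). The summed macrophage level was 1832 to 3326 TPM in IWAT and 5466 to 10839 TPM in EWAT. Lyz2 made up most of the EWAT sums, with 987.90 to 1717.61 TPM in IWAT and 4444.01 to 8396.30 TPM in EWAT. The sums thus describe Lyz2 more than the whole list. Of the 10 macrophage genes, 2 had a positive and 8 a negative change. Besides Cd163, Mrc1 was higher in every IWAT library than in every EWAT library on the CPM scale. Irf8, Spi1, Itgam, Cd40 and Cx3cr1, all lower in IWAT, are also genes of monocytes or macrophages. Mgl2, higher in IWAT, is also a gene of some macrophages. The part of those cells in the list counts, in either direction, was not tested.

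**Figure D5:**
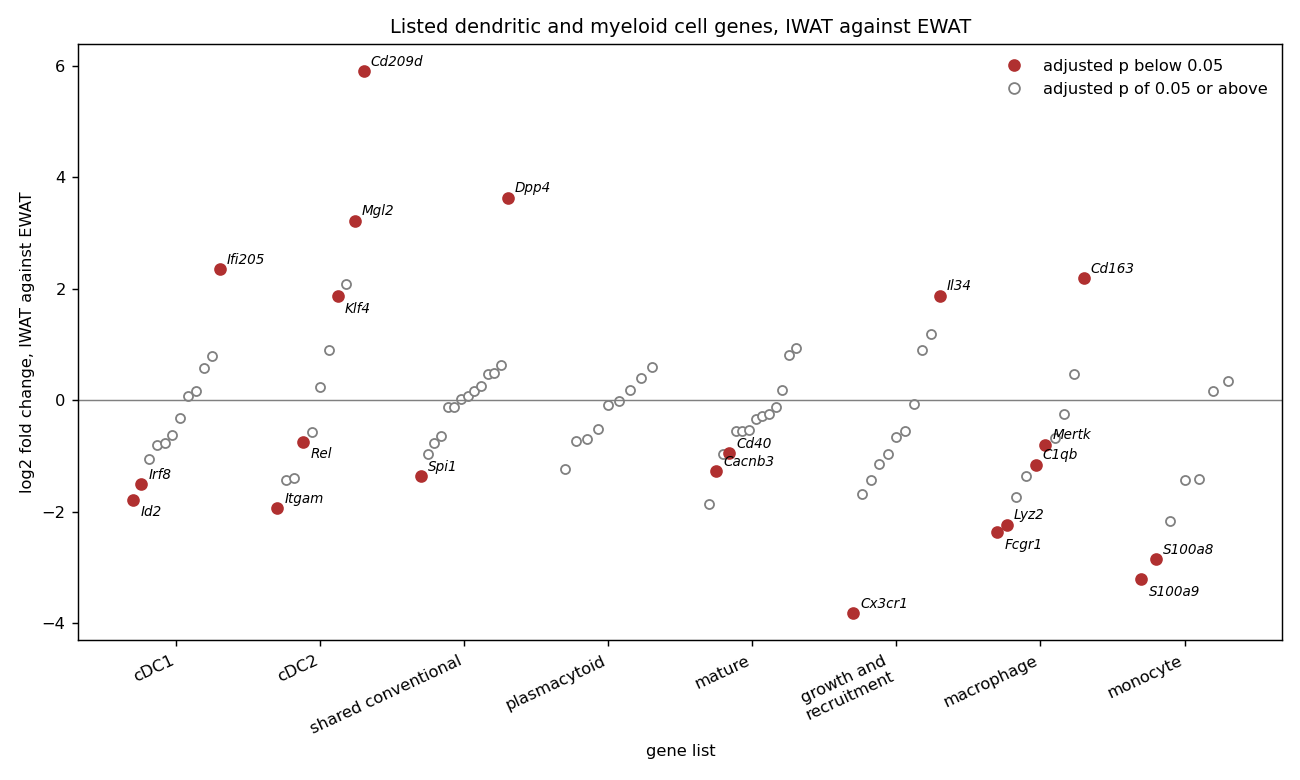
Log2 fold change in IWAT against EWAT (vertical axis) of the tested genes of 8 lists (horizontal axis), with genes at an edgeR adjusted p below 0.05 filled and named. Cd209d, Mgl2 and Dpp4 lie highest at 5.90, 3.22 and 3.63, Cx3cr1 lowest at -3.82, and the plasmacytoid list has no filled point.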

How the data were processed

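RNA from 12 fat samples was depleted of ribosomal RNA and sequenced in single-end reads, per the labels' protocols. Per the submitters' processing notes, Trimmomatic 0.36, RSEM 1.3.0, DESeq2 1.10.1 and the build GRCm38.p4 were used; strand handling and gene annotation are not given in the sources used here. RSEM's expected count per gene and TPM, both made by the authors, are the deposited values used.

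The members and gene lists were chosen with earlier results of these data known. Symbols were read from the deposited IDs; 47224 of 47729 IDs were found in GENCODE M21. After rounding of the expected counts, genes were filtered with filterByExpr (minimum count 10) and 18942 were fitted with edgeR 4.0.16 (R 4.3.3; TMM factors 0.846 to 1.14; quasi-likelihood F test; Benjamini-Hochberg; threshold 0.05), all 12 libraries in 1 model with a coefficient per depot. The biological coefficient of variation was 0.385. Likeness used log2 CPM with a prior count of 2. limma 3.58.1 and DESeq2 1.42.0 served as alternatives, as did other scalings and filters, log2(TPM + 0.1), a replicate term and left-out libraries. The scripts were tested on simulated data. Depth was 12933516 to 21106554 expected counts per library, and 3 counts correspond to 0.142 to 0.232 CPM; read counts carry no molecular identifiers, so such floors cover counting error only.

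Named were all 9 members, of the dendritic cell, macrophage, monocyte and endothelial lists the genes called in any comparison (up to 4 by smallest p among depots, otherwise the 2 with the smallest p), and the 3 genes most like each member. Other genes named (Itgam, Xcr1, Ccr7, Tcf4, Klk1, Ccr9, Spib, Cd3e, Xcl1, Tlr7, Flt3l, Cd163, Ucp1 and the class II genes) were chosen after their values were seen; the other cell lists are given as sums. Same-numbered samples deviated together, with a correlation over 0.1 in every pair, for BAT and RWAT and for no other pair of depots. These correlations were 0.21, 0.49 and 0.23 over 16075 genes, and they do not settle whether the numbers are pairs. The BAT against RWAT values above come from the fit without the replicate block. With the block, BAT against RWAT gave 1 called gene in place of 3 and 0 members in both fits.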

Additional observations from a re-analysis of the deposited data

Results flagged for a closer look

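Within the 9 white libraries, 1 library lay far in TPM from the nearest of the others, relative to the whole range, for 3 of the 9 genes. Zbtb46 had 12.95 TPM in IWAT 2, with a gap of 0.549 of the range. IWAT 2 was also the library with the highest ratio of TPM to CPM. On the CPM scale IWAT 2 was again the highest for Zbtb46, at 27.13 CPM. RWAT 3 followed at 20.24 CPM, and RWAT 1 was the lowest white library at 10.58 CPM. The Zbtb46 gap was thus a smaller part of the range in CPM than in TPM, and its flag rests on TPM. Flt3 had 3.07 TPM in EWAT 3, with a gap of 0.643 of the range, and 10.21 CPM there. Fscn1 had 219.26 TPM in EWAT 1, with a gap of 0.568 of the range, and 206.58 CPM there. Chance flags about 1 in 20 groups where values are normally distributed, which was not checked for these TPM values. All 3 flags are at the high end, and the 9 libraries mix 3 depots. Groups of 3 libraries, BAT among them, were not screened in this way, so the high Siglech level of BAT 1 is given above as values only.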

How the results depend on the processing

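The count of called members stayed at 0 in all 8 comparisons under the other scalings, filters, tools, the replicate block and each single left-out library, with 3 exceptions. It was 1 (Siglech) in BAT against the white depots without BAT 2 and BAT 3 together, and in IWAT against EWAT it was 1 (Cd209a) with limma on log2(TPM + 0.1) and 1 (Cd83) without EWAT 1 and BAT 2 together. The replicate block changed no member call. It gave 639 called genes in IWAT against EWAT, and 98 with only those depots fitted, in place of 1710; DESeq2 gave 3780. Same-numbered samples of IWAT and EWAT did not deviate together (-0.38, 0.10 and 0.00). Over all genes the block gave 11 in place of 40 among the 4 depots, 2 in place of 10 in BAT against the white depots, 3 in place of 16 in BAT against EWAT and 3 in place of 5 in BAT against IWAT. DESeq2 gave 2421, 180, 477, 321, 45, 130 and 1150 among the 4 depots, in BAT against the white depots, EWAT, IWAT and RWAT, and in RWAT against EWAT and IWAT.

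The direction of some uncalled changes turned. In BAT against the white depots, leaving out 1 library at a time gave Flt3 -0.51 to 1.13, Batf3 -0.11 to 0.66, Itgae -0.89 to 0.12, Siglech -0.24 to 1.81 and Cd83 -0.20 to 0.20; without BAT 2 and BAT 3 together Itgae was 0.52, Cd209a 0.16 and Cd83 0.23; without EWAT 1 and BAT 2 together Itgae was 0.08 and Cd83 0.07; and with limma on log2(TPM + 0.1) Zbtb46 was -0.11. In IWAT against EWAT, left-out libraries gave Clec9a -0.21 to 0.31 and Itgae -0.03 to 0.82, and Clec9a was -0.21 without EWAT 1 and BAT 2 together. The causes were not tested. Members with under 100 counts in most libraries (Siglech, Itgae, Batf3, Clec9a, Flt3) limit what these depths can show.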
